A study of Mus musculus with 12 samples.

Results

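*Tor1aip2* was described here through its splicing, as 2 clusters of overlapping introns that together hold 12 introns, of 7263 tested clusters and 20437 introns in all. Its members were all tested clusters that the deposited tables assign to *Tor1aip2*, with every intron in them. The gene was selected on its measured splicing change between dTAG-13 and Ctrl in these same tables, so that the values below describe the gene and were given no test. Nascent RNA was labelled with 4-thiouridine (4sU) for 30 min in female 129S x Cast mouse embryonic stem cells, pulled down and sequenced. The dTAG-13 group held 6 samples from cells given dTAG-13 for 3 h before labelling, and the Ctrl group held 6 samples labelled without dTAG-13. In all 12 samples METTL3, the methyltransferase that places m6A on nascent RNA, carried a C-terminal FKBP12F36V tag, which dTAG-13 targets for degradation, and the cells carried a doxycycline-inducible *Xist*. Each group held 3 replicates of clone C3 and 3 of clone H5, and the cells were grown on inactivated mouse fibroblasts. The tables hold 1 fitted value per intron and condition over all 6 samples, with no value or read count per sample. No spread between replicates, no depth behind a value and no difference between the clones could therefore be given for any number below. The tables also hold no expression level. Of 8 stem cell genes, 6 had clusters in them (*Nanog*, *Sall4*, *Esrrb*, *Zfp42*, *Dppa4* and *Tdgf1*), while *Pou5f1* and *Sox2* had none. Of 6 fibroblast genes only *Fn1* had. A cluster needs overlapping introns, so its presence or absence is no measure of expression, and the labelled cell type was not checked.

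*Tor1aip2* is known for 2 unlike products. The long one is LULL1, a membrane protein of the endoplasmic reticulum whose lumenal domain activates torsin, an ATPase of the endoplasmic reticulum and nuclear envelope. Its paralogue LAP1, made by *Tor1aip1*, does the same at the inner nuclear membrane. The short one is IFRG15, which shares no coding exon with LULL1. In a first layout, exon 3 is extended, ends the transcript and holds the whole IFRG15 reading frame. In the other, exon 3 is cut short at a 5′ splice site and joined to exon 4, where the LULL1 reading frame starts. Splicing at that 5′ splice site therefore separates transcripts that can encode LULL1 through exon 3 from those that can encode IFRG15.

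The gene spans chr1:156035403-156068861 on the plus strand of mm10 (GRCm38) in GENCODE vM21. The ten-intron cluster joined 5 upstream 5′ splice sites to 3 downstream 3′ splice sites. The 3 most upstream 5′ splice sites each end an annotated first exon, called here exon 1a, exon 1b and exon 1c in genomic order. In 1 GENCODE transcript a longer first exon runs on through exon 2 and ends at its 5′ splice site. The first 2 lie inside the span of the neighbouring *Tor1aip1* (chr1:156004599-156036480). Exon 2 is 60 nt long and untranslated. Exon 3 covers 330 nt (chr1:156051294-156051623) in its internal form and 2443 nt, to position 156053736, in its longest terminal form. The IFRG15 reading frame of 131 codons lies at chr1:156051878-156052270 (without its stop codon), and so starts 255 nt after the last base of internal exon 3, within what is intron in the LULL1 layout. The LULL1 reading frame of 502 codons starts at position 156059521, at base 111 of the 177 nt of exon 4, and internal exon 3 is entirely 5′ untranslated sequence. Of 9 GENCODE transcripts, 5 end in exon 3, 4 of them with the IFRG15 frame, and 1 joins exon 3 to exon 4. Directly to exon 4, 1 joins exon 1c and 1 joins exon 1b, the latter by an intron that is not in the cluster.

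The 5′ splice sites of the cluster are shown because the introns described below start at them, and that of exon 3 had the largest difference in use. Each line gives 24 bases read from the GRCm38 sequence, 5′ to 3′ on the plus strand, with the first 2 intron bases in capitals and 12 exon bases before them.
exon 1a (chr1:156035909-156035932): tcgagagcgaagGTtgtaagcgct
exon 1b (chr1:156036080-156036103): gcggcgcgacggGTgagctccgta
exon 1c (chr1:156040991-156041014): tggctggaaattGTaagtaagcaa
exon 2 (chr1:156041123-156041146): acagaaatcgagGTaggttgggat
exon 3 (chr1:156051612-156051635): tctgtgttgctaGTaagtgactga

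The 3′ splice sites of exon 2, exon 3 and exon 4 are shown likewise, with the last 2 intron bases in capitals and 4 exon bases after them.
exon 2 (chr1:156041055-156041078): ctattttctcctttcaaaAGgtct
exon 3 (chr1:156051274-156051297): tgaagttttattatttacAGgtgt
exon 4 (chr1:156059391-156059414): ttgttttcatttcattgtAGtcac

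Each site was scored, in bits, against a position weight matrix of all tested sites, of which there were 13986 5′ and 13536 3′ sites. The 5′ splice site of exon 3 scored 7.48 bits, at the 44.7th percentile, close to the median of 7.84 bits. It ends its exon in cta, where the 5′ splice site of exon 2 (9.52 bits, 77.2nd percentile) has gag. Those of exon 1b and exon 1c scored 7.51 and 7.09 bits. The 5′ splice site of exon 1a was far weaker, at 2.13 bits and the 1.62nd percentile. The 3′ splice sites of the cluster scored alike, with 10.91 bits for exon 2, 11.51 for exon 3 and 10.88 for exon 4, above the median of 9.11 bits.

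The intron from exon 3 to exon 4, which joins exon 3 to the start of the LULL1 frame, had the one gain of at least 0.1 in the gene. PSI, the share of a cluster's split reads that an intron takes, was 0.271 in dTAG-13 cells and 0.0241 in Ctrl cells for this intron (chr1:156051623-156059411, given here by its flanking exon bases). The difference, dTAG-13 minus Ctrl, was 0.247, an 11.3-fold higher share. Among the 19446 introns with a Ctrl PSI of at least 0.01, this was the fourth highest ratio, and 6 of them reached 10-fold.

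Introns that run into exon 2 or out of it took smaller shares in dTAG-13 cells. The intron from exon 2 to exon 3 had a PSI of 0.189 in dTAG-13 cells and 0.306 in Ctrl cells, a difference of -0.117. The intron from exon 1c to exon 2, only 72 nt long, had 0.155 in dTAG-13 cells and 0.251 in Ctrl cells, a difference of -0.0962. From exon 1a to exon 2 the PSI was 0.0322 in dTAG-13 cells and 0.0517 in Ctrl cells. From exon 1b to exon 2 it was 0.0252 in dTAG-13 cells and 0.0303 in Ctrl cells. All 4 of these shares were lower with dTAG-13, the last by the least. A lower share was not particular to exon 2. The intron from exon 1c to exon 4, which does not touch exon 2, had a dTAG-13 to Ctrl ratio of 0.619. The ratio from exon 2 to exon 3 was 0.617.

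Introns that pass over exon 2 and enter exon 3 behaved otherwise. The intron from exon 1c to exon 3 had a PSI of 0.263 in dTAG-13 cells, against 0.273 in Ctrl cells. From exon 1a to exon 3 the PSI was 0.0229 in dTAG-13 cells and 0.0113 in Ctrl cells, 2.03-fold higher. From exon 1b to exon 3 it was 0.0125 in dTAG-13 cells and 0.00512 in Ctrl cells, 2.44-fold higher. The last 2 introns are in neither the GENCODE nor the RefSeq annotation and stayed rare in both conditions. The introns that skip exon 3 were rare too. From exon 1c to exon 4 the PSI was 0.0182 in dTAG-13 cells and 0.0294 in Ctrl cells, and from exon 2 to exon 4 it was 0.0106 in dTAG-13 cells and 0.0172 in Ctrl cells.

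**Figure D1:**
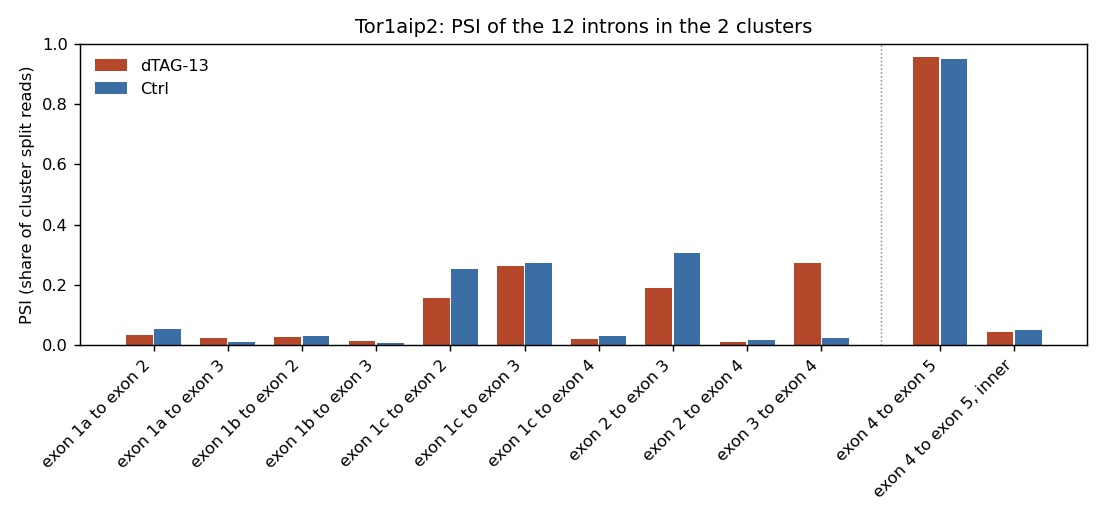
PSI (vertical axis, share of the split reads of a cluster) of the 12 *Tor1aip2* introns, with dTAG-13 and Ctrl as paired bars, each 1 fitted value over 6 samples without an error; the dotted line parts the ten-intron cluster from the other one. The exon 3 to exon 4 intron stands at 0.271 in dTAG-13 and 0.0241 in Ctrl. The exon 2 introns are lower in dTAG-13, as is the exon 1c to exon 4 intron.

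An absolute PSI difference of at least 0.1 was reached by 2 of the 12 introns, exon 3 to exon 4 and exon 2 to exon 3, with exon 1c to exon 2 just below it. Over all introns of tested clusters 2.81% reached this size, 1.42% as a gain and 1.39% as a loss. The gene was chosen for its change, so nothing was read from its count against these shares.

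**Figure D2:**
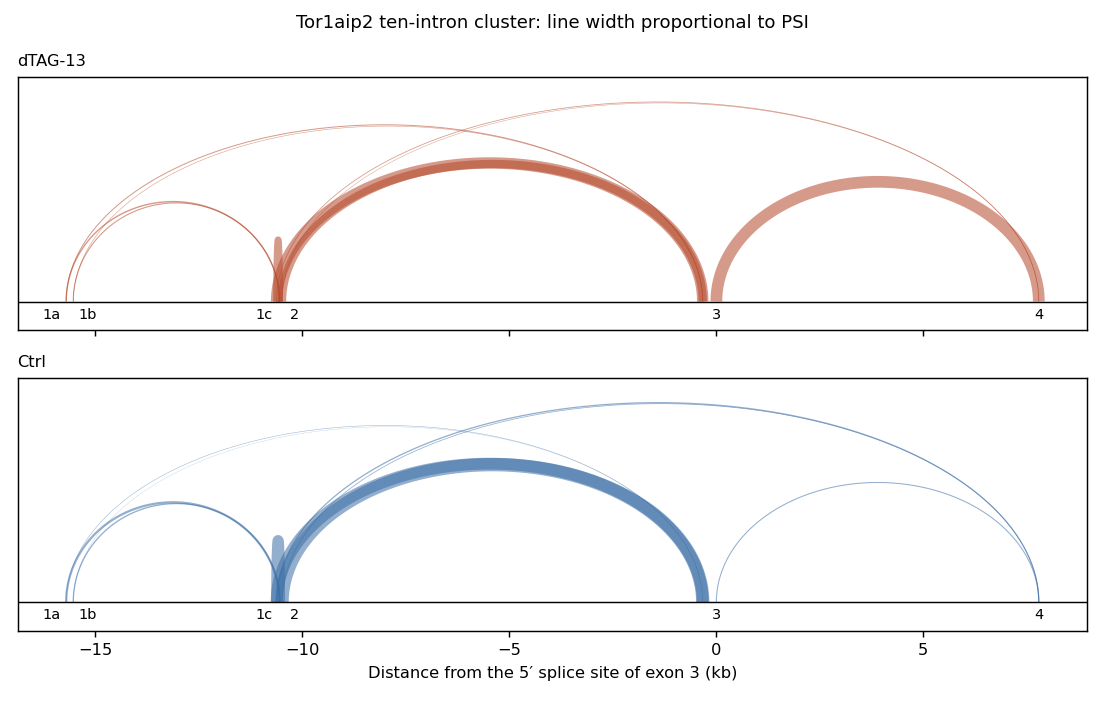
Map of the ten-intron cluster with dTAG-13 above Ctrl, each arc an intron whose line width is proportional to its PSI (arc height carries no value), against the distance in kb from the 5′ splice site of exon 3. The thick arc to the right of exon 3 in dTAG-13 is the intron to exon 4, at a PSI of 0.271, which is thin in Ctrl at 0.0241.

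PSI add to 1 within a cluster, so a gain at one intron lowers the others. The ratios of the 2 conditions were therefore compared between introns. The introns from exon 2 to exon 3, from exon 2 to exon 4 and from exon 1c to exon 2 all had a dTAG-13 to Ctrl ratio of 0.617. These ratios were equal far more closely than to within 0.1%. Relative to exon 2 to exon 3, the ratio differed by 1.89e-05% for exon 2 to exon 4 and by 0.000207% for exon 1c to exon 2. The introns from exon 1c to exon 4 (0.619) and from exon 1a to exon 2 (0.623) lay within 1% of it. Of the 522 tested clusters with at least 5 introns, 7 (1.34%) held 3 or more introns at an equal ratio to within 0.1%. The PSI are outputs of a model fitted to the whole cluster, and whether these equal ratios come from the reads or from the fit was not tested. Whether each of these 5 losses is a separate measurement is therefore not known. Relative to the exon 2 to exon 3 intron, the exon 3 to exon 4 intron was 18.2-fold higher in dTAG-13 cells, exon 1b to exon 3 was 3.95-fold higher, exon 1a to exon 3 was 3.29-fold higher, exon 1c to exon 3 was 1.56-fold higher and exon 1b to exon 2 was 1.34-fold higher.

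**Figure D3:**
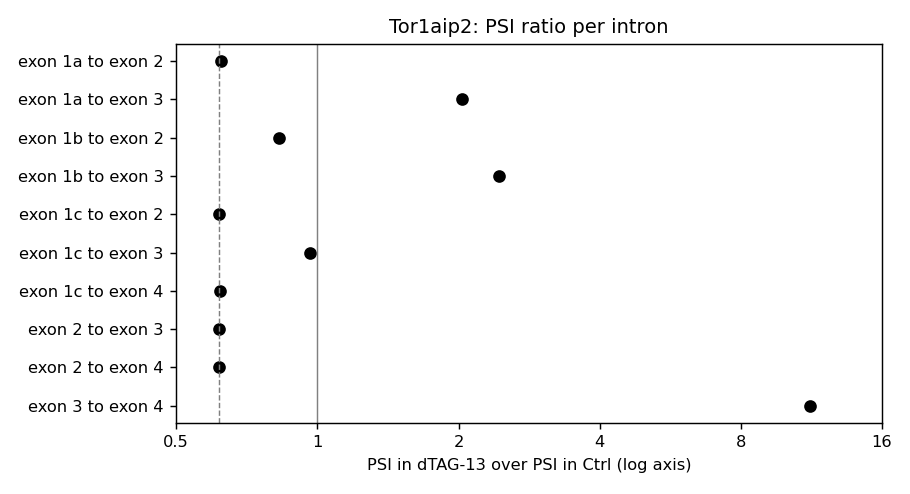
PSI in dTAG-13 over PSI in Ctrl (horizontal log axis) for the 10 introns of the cluster, with a solid line at 1 and a dashed line at the ratio of the exon 2 to exon 3 intron. Of the introns, 5 sit at or near the dashed line at 0.617, and the exon 3 to exon 4 intron lies at 11.3.

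Summed over each splice site, the 5′ splice site of exon 3 took 0.271 of the cluster in dTAG-13 cells and 0.0241 in Ctrl cells, and that of exon 2 took 0.1997 in dTAG-13 cells and 0.324 in Ctrl cells. Exon 4 received 0.300 in dTAG-13 cells and 0.0707 in Ctrl cells. Of what reached exon 4, 90.4% came from exon 3 in dTAG-13 cells and 34.1% in Ctrl cells. Most of the fitted share joined to exon 4 thus came from exon 3 in dTAG-13 cells, and most of the small share in Ctrl cells had skipped it. Both percentages are quotients of fitted PSI and not read counts. In Ctrl cells they rest on rare introns, with PSI of 0.0241, 0.0294 and 0.0172 and unknown depth. The introns that skip exon 3 are among those with equal or nearly equal dTAG-13 to Ctrl ratios, so they may not be separate measurements. The summed share that skipped exon 3 was itself small, 0.0288 in dTAG-13 cells and 0.0466 in Ctrl cells.

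Reads leaving exon 3 were set against reads entering it. This ratio was 0.556 in dTAG-13 cells and 0.0404 in Ctrl cells. It is no share of transcripts. Transcripts that end in exon 3 and those not yet spliced beyond it lower the ratio, and uneven coverage can move it either way. These cannot be told apart in split reads. For exon 2, with no annotated transcript end inside it, the same ratio was 0.940 in dTAG-13 cells and 0.971 in Ctrl cells, near 1 in both. Reads from the annotated first exon that runs on through exon 2 leave it without entering it, which raises this ratio. Most introns at exon 2 are among those with equal or nearly equal dTAG-13 to Ctrl ratios. Whether the likeness between the conditions is a separate measurement is therefore not known.

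The fitted share that went to exon 2 was lower from each of the 3 first exons. The percentages here are quotients of fitted PSI and not read counts. For exon 1a and exon 1b they rest on unannotated introns into exon 3, with a Ctrl PSI of 0.0113 and 0.00512 and unknown depth. The introns from exon 1a and exon 1c to exon 2 are among those with equal or nearly equal ratios, so these may not be separate measurements. Of the split reads from exon 1a, 58.4% went to exon 2 in dTAG-13 cells and 82.1% in Ctrl cells. From exon 1b it was 66.9% in dTAG-13 cells and 85.6% in Ctrl cells, and from exon 1c 35.5% in dTAG-13 cells and 45.4% in Ctrl cells. Over all first exons, 40.1% went to exon 2 in dTAG-13 cells and 51.1% in Ctrl cells. The 3 first exons kept the same order of use in both conditions, and the share of exon 1b was 1.31-fold higher in dTAG-13 cells. The annotated first exon that runs on through exon 2 is not counted in these shares. Exon 1c gave 82.5% of first-exon reads in dTAG-13 cells and 84.9% in Ctrl cells, exon 1a gave 10.4% in dTAG-13 cells and 9.66% in Ctrl cells, and exon 1b gave 7.11% in dTAG-13 cells and 5.44% in Ctrl cells.

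The choice between 2 3′ splice sites at exon 5 differed little between the conditions, and introns further downstream were in no tested cluster. PSI here is a share within the second cluster, so it gives no amount of splicing from exon 4 to exon 5. This second cluster joins the 5′ splice site of exon 4 to exon 5, with a PSI of 0.956 in dTAG-13 cells and 0.951 in Ctrl cells, or to a site 50 nt inside exon 5, with 0.0440 in dTAG-13 cells and 0.0491 in Ctrl cells. The inner site is in neither annotation, is not a multiple of 3 nt away, and is shown beside the annotated one for comparison.
exon 5 (chr1:156061568-156061591): aaacattcttgtctcactAGactc
exon 5, inner (chr1:156061618-156061641): caataaactctcaaacacAGgaca
The inner 3′ splice site scored 2.04 bits, at the 3.45th percentile, against 6.46 bits and the 22.7th percentile for the annotated site.

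METTL3 places m6A on the A of a short consensus of which GGACT is a common form, and the letters GGACT were searched on the sense strand within 250 nt on either side of each 5′ splice site. Around that of exon 3 there were 3 matches, which 1.69% of the 13986 tested 5′ splice sites equalled or exceeded, and none on the antisense strand. Over all tested 5′ splice sites the mean count was 0.492 on the sense strand and 0.432 on the antisense strand. Around the other 5′ splice sites of the cluster there were 2 for exon 1c, 1 for exon 2 and none for exon 1a or exon 1b. The windows of exon 1c and exon 2 overlap, so a match can count at both. The matches at exon 3 are shown with the motif in capitals, and the A lies 51 nt before the last base of internal exon 3, 29 nt after it and 171 nt after it.
before the site (chr1:156051562-156051582): actggcttGGACTagaggcct
after the site, nearer (chr1:156051642-156051662): tctagactGGACTggtccctg
after the site, farther (chr1:156051784-156051804): ctgtaactGGACTgactgttg
The last 2 lie in the intron of the LULL1 layout and, in the IFRG15 layout, in exon 3 ahead of the IFRG15 start codon. A match is a sequence feature and no measurement of methylation.

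**Figure D4:**
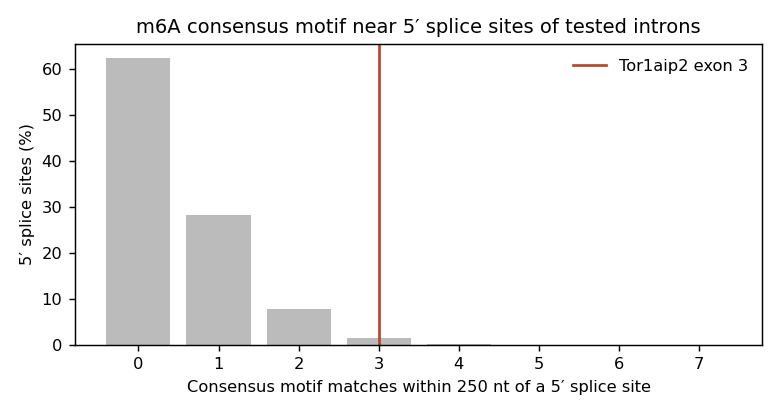
Share of the 13986 tested 5′ splice sites (vertical axis, %) by the number of GGACT matches within 250 nt (horizontal axis), with *Tor1aip2* exon 3 marked at 3. Most sites (62.3%) have none.

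The shift of a cluster was summarised as the total variation distance, the summed absolute PSI differences divided by 2, which runs between 0 and 1. It was 0.266 for the ten-intron cluster, rank 47 of 7263 (99.4th percentile, median 0.0220, with 4.93% of clusters at 0.1 or above), and 0.00513 for the second cluster, rank 6192. Among the 522 clusters with at least 5 introns (median 0.0345) the ten-intron cluster ranked 7. It had the highest value among the 9 clusters of exactly 10 introns, the others lying between 0.0119 and 0.168. Without the exon 3 to exon 4 intron, and with the rest rescaled, the distance was 0.116.

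**Figure D5:**
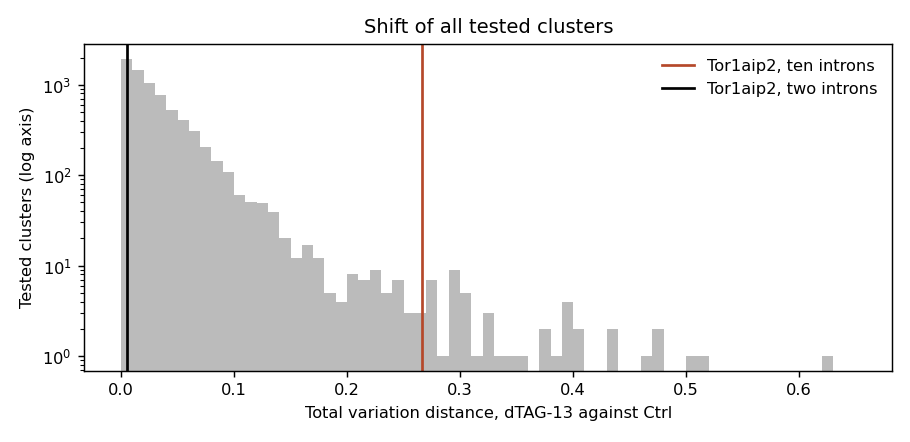
Number of tested clusters (vertical log axis) by total variation distance between dTAG-13 and Ctrl (horizontal axis), with both *Tor1aip2* clusters marked. The ten-intron cluster lies at 0.266 and the other at 0.00513.

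Clusters with at least 5 introns and the nearest distances were those of *Rps7* (0.272), *Morf4l1* (0.271), *Bod1l* (0.2501), *Kdm3a* (0.233) and a cluster shared by *Zfp979* and *Zfp534* (0.294). *Rps7*, which encodes a ribosomal protein, had a largest gain of 0.244, close to the 0.247 of *Tor1aip2*, while in *Morf4l1*, a chromatin factor, the largest gain was 0.123. The 5 highest distances of all belonged to a cluster without a gene name (0.625), *Pitpnb* (0.511), *Rbpj* (0.509), *Wdr20* (0.477) and *Nudt21* (0.473).

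Of 37 listed genes of the nuclear envelope and its membrane remodelling, among them the torsins, the lamins, LINC complex genes and LEM-domain genes, 14 were in the tables and 12 had a tested cluster. None of the 12 reached a total variation distance of 0.1, which 7.33% of the 4273 genes did (313 genes). Their median was 0.0446, against 0.0322 over all genes. The highest were *Nemp1*, an inner nuclear membrane protein, at 0.0849, and *Tmem43*, which binds lamins and emerin, at 0.0638. *Icmt* (0.0599), *Lpin1* (0.0581) and *Ist1* (0.0552) came next. *Tmpo* (LAP2) reached 0.0505 in the highest of its 3 clusters, *Lmnb2* 0.0386 and *Emd*, which encodes emerin, 0.00417. The torsins *Tor1a*, *Tor1b*, *Tor2a*, *Tor3a* and *Tor4a* had no cluster in the tables, and *Tor1aip1* had 1 that was not tested.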

How the data were processed

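The authors aligned the reads of 12 samples to mm10 with STAR 2.5.2b and grouped split reads into clusters with LeafCutter, pooling both clones. The deposited tables hold PSI as a fraction, 1 fitted value per intron and condition. The further columns hold the authors' own comparison (log-likelihood ratio, p-values, fitted effects and differences) and were not used. Status and gene names were taken from the tables.

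Differences are dTAG-13 minus Ctrl, computed here, and no test was made because the values have no replicate error. Deposited intron positions are the flanking exon bases, since 99.9% of introns then end in GT or GC and AG on GRCm38. Junctions were matched to GENCODE vM21 and RefSeq. 5′ splice sites were scored over 3 exon and 6 intron bases and 3′ splice sites over 20 intron and 3 exon bases. Scoring and distances were tested on simulated data. Python 3.11.15, pandas 2.3.3 and pysam 0.24.0 were used.

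The members and lists were chosen with earlier results of these data known. By the naming rule, genes named beyond *Tor1aip2* were its paralogue and the torsins, listed genes past the threshold (there were none), and the genes of the 5 nearest and the 5 highest clusters by distance. Marker genes of the cell types were named only as in the tables or not. *Nemp1*, *Tmem43*, *Icmt*, *Lpin1*, *Ist1*, *Tmpo*, *Lmnb2* and *Emd* were named after their values were seen.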

Additional observations from a re-analysis of the deposited data

How the results depend on the processing

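The total variation distance of the ten-intron cluster was the same, 0.266, after leaving out introns under a PSI of 0.01 in both conditions, since none was. The largest difference of 1 intron was 0.247. Within the 4 introns that reach exon 3 the distance was 0.126, and it was 0.116 without the exon 3 to exon 4 intron, an alternative chosen after seeing the data. The number of *Tor1aip2* introns past the threshold was 3 at 0.05, and 1 at 0.2 or at a logit difference of 1. The rank was 49 by the largest difference of 1 intron and 7 among clusters of at least 5 introns. Of the nuclear envelope genes, 6 passed at 0.05, where 31.1% of all genes did, and 0 at 0.2 or without clusters of several gene names. No paired analysis was possible because the columns pool all samples of a condition, and for the same reason no replicate could be left out and the clones could not be split. The depth behind each PSI is unknown, which limits the rare introns most.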
